A study of Pan troglodytes with 8 samples.

Results

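The genes described here encode the proteins of the cytosolic ribosome across 4 populations of cells sorted from cerebral organoids of a chimpanzee line. They were taken by symbol from the table counted on the chimpanzee genome: every gene named RPL or RPS followed by a number and at most a short suffix, together with RPLP0, RPLP1, RPLP2 and RPSA. The rule found 86 of 60583 genes, of which 31 belong to the small (40S) subunit, 46 to the large (60S) subunit and 9 are paralog-type genes named after another member (RPL3L, RPL7L1, RPL10L, RPL22L1, RPL26L1, RPL39L, RPS27L, RPS4Y1 and RPS4Y2). A filter on low counts kept 79 of the 86 members (30, 43 and 6 in these classes). The 7 that did not pass were RPL10L, RPL18, RPL35A, RPL36, RPS15, RPS4Y1 and RPS4Y2.

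All libraries came from SandraA, 1 chimpanzee induced pluripotent stem cell line with no engineered allele named in the labels, grown into organoids and collected at week 8 of culture give or take 3 days. Cell sorting gave apical radial glia (aRG), neural stem cells at the ventricular surface, their basal counterparts (bRG), which lie away from that surface, basal intermediate progenitors (bIP), and neurons sorted as BCL11B-positive (N). Each population had 2 libraries, numbered 1 and 2 in the labels, made from the RNA of 10000 cells each by a Smart-seq2 type protocol without strand information or molecular identifiers. Whether the paired libraries of a population derive from different cultures is not stated in the labels. P-values therefore measure spread among libraries, which may be technical, and 1 line stands for the species.

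Each ribosome carries 1 copy of nearly all of its proteins, and their genes are among the most strongly transcribed of a growing cell. Their messenger RNAs begin with a terminal oligopyrimidine (TOP) tract, through which the mTOR pathway and LARP1 adjust their translation and stability together, while MYC-family factors raise their transcription. In the developing cortex, ribosome production is known to be high in dividing progenitors and to decline as neurons differentiate.

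Library totals ran from 24649971 to 33245892 counts on the chimpanzee genome and from 11635116 to 16447389 on the human genome. Levels are CPM, that is counts relative to the library total, scaled with the TMM factors of edgeR (trimmed mean of M values); they are not divided by transcript length, so CPM ranks genes by reads and not by transcripts. The populations carried the markers of their labels: summed over 8 radial glia markers, levels were 3532 to 3710 CPM in aRG, 2393 to 2509 in bRG, 633 to 644 in bIP and 96.5 to 188 in N, with the 7 intermediate progenitor markers highest in bIP (3578 to 4640 CPM) and the 8 neuron markers highest in N (5298 to 5566 CPM). The aRG libraries also held markers of other cells. Summed over 8 choroid plexus markers they reached 986 and 3324 CPM, against 46.9 to 90.2 in the other 6 libraries, and summed over 8 mesenchyme and vessel markers they reached 399 and 2039 CPM, against 23.3 to 357. Of 3 immune markers, 1 had 0 counts in all libraries, and the summed level was 21.0 to 37.0 CPM. Sums were 3.29 to 16.0 CPM for 5 interneuron markers and 1.28 to 12.0 CPM for 2 pluripotency markers.

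The summed share of all counts taken by the 86 members was highest in aRG and lowest in N, and it was higher in the library numbered 1 than in the library numbered 2 of every population. In aRG the members took 3.93% and 2.76% of counts in libraries 1 and 2. In bRG they took 3.20% and 2.00%. In bIP they took 3.08% and 2.13%, and in N 2.42% and 1.40%. Exact (Clopper-Pearson) 95% intervals were narrow, for example 1.40% to 1.41% for the lowest share, and cover counting error only, since PCR copies are counted. Means were 3.34% ± 0.826 in aRG, 2.60% ± 0.851 in bRG, 2.60% ± 0.672 in bIP and 1.91% ± 0.718 in N (SD, n = 2 each). By the values of single libraries, only aRG and N did not overlap. The share in aRG was 1.62 times that in N among libraries numbered 1 and 1.97 times among those numbered 2. It was 1.23 and 1.38 times that in bRG, and 1.28 and 1.30 times that in bIP. The bIP and bRG shares lay close together, with bIP at 0.961 times bRG in number 1 and 1.06 times in number 2. Because these are bulk libraries, fewer cells of a type and less RNA per cell cannot be told apart, and a share of counts cannot tell a lower amount of ribosomal protein mRNA from a higher amount of all other RNA.

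**Figure D1:**
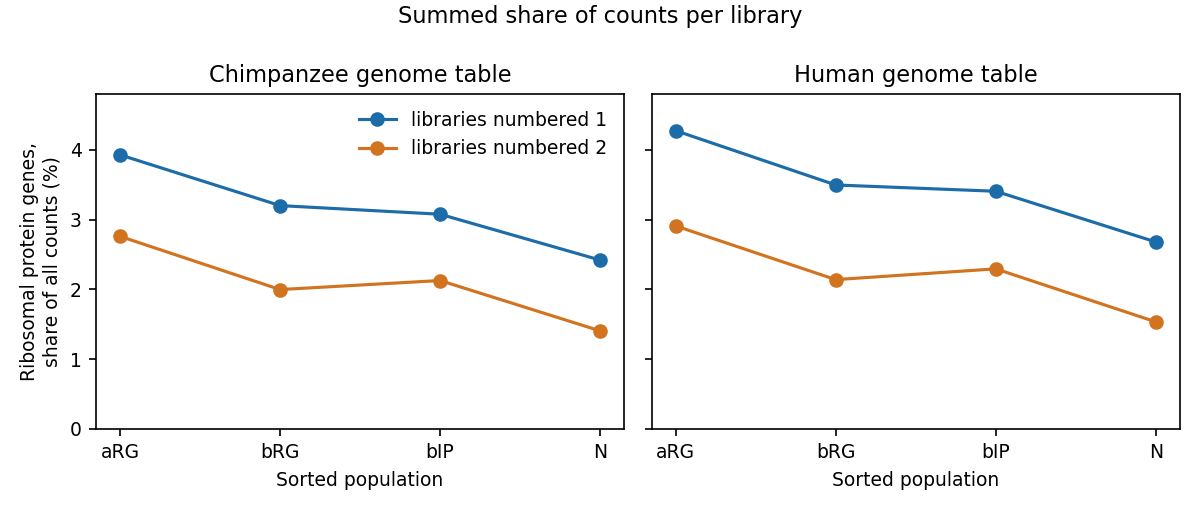
Share of all counts (%) taken by the ribosomal protein genes in each of 8 libraries, on the chimpanzee table (left) and the human table (right); points are single libraries, and lines join libraries with the same number in the labels. In both tables aRG is highest and N lowest within each number, and each library numbered 1 lies above its counterpart numbered 2.

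Both subunits showed this order. The 40S members took 1.26% ± 0.334 of counts in aRG, 0.959% ± 0.326 in bRG, 0.985% ± 0.269 in bIP and 0.705% ± 0.269 in N. The 60S members took 2.06% ± 0.493, 1.61% ± 0.521, 1.59% ± 0.402 and 1.19% ± 0.446 in the same populations (SD, n = 2). The aRG share was 1.67 and 1.98 times the N share for the 40S genes and 1.60 and 1.97 times for the 60S genes, in numbers 1 and 2. The 9 paralog-type genes together took only 0.0196% to 0.0286% of counts in any library.

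The difference between the numbered libraries was of a size with that between populations, so values within each number stand beside the comparisons. The summed share in library 1 was 1.42 times that in library 2 in aRG, 1.60 times in bRG, 1.45 times in bIP and 1.72 times in N. In an additive model of population and number, added after the data had been seen, 52 of 79 members were lower in number 2 and 0 were higher by edgeR's quasi-likelihood test with Benjamini-Hochberg adjustment at 0.05, where 0.735% of all genes tested were called lower and 0.707% higher. The 52 were 23 of 30 40S genes, 29 of 43 60S genes and 0 of 6 paralog-type genes. With other scalings, tools or tables the count was 50 to 62, where 0.701% to 2.53% of all genes were called lower. Without one library at a time, the members' median log2 difference of number 2 from number 1 ran from -0.78 to -0.64. The labels do not say what the number marks. MALAT1, an abundant nuclear non-coding RNA, took 3.61% to 8.57% of counts and was also higher in library 1 in each population, by 1.32 to 2.08 times. Its part in the members' difference was not tested.

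Genes with the largest number difference included RPL37, RPL39 and RPL34, all 60S proteins. RPL37 reached 557 and 242 CPM in aRG 1 and 2, 404 and 167 in bRG, 496 and 246 in bIP, and 414 and 146 in N. All libraries numbered 1 were above all libraries numbered 2, whichever population they came from, and the log2 difference of number 2 from number 1 was -1.25 (SE 0.13, adjusted p = 0.00133 by edgeR's quasi-likelihood test with Benjamini-Hochberg adjustment). The same difference was -1.24 for RPL39 and -1.11 for RPL34. At the other end, RPL8 differed by -0.27, RPL7 by -0.30, RPSA by -0.31 and RPS2 by -0.34, none of which passed the threshold (adjusted p = 0.234 for RPSA, 0.261 for RPS2, 0.276 for RPL7 and 0.308 for RPL8 in that edgeR test). RPL36A, whose product lies at the tRNA exit site, was the only member with a higher level in library 2 in all 4 populations: 36.1 and 46.9 CPM in aRG, 37.4 and 39.1 in bRG, 26.9 and 42.6 in bIP, and 27.3 and 35.8 in N. That difference did not pass either (0.37, SE 0.18, adjusted p = 0.394 in the same edgeR test). Counting direction alone, 70 of 79 members were lower in number 2 in all 4 populations, against 11.9% of all genes tested, and 1 was higher in all 4, against 10.8%.

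**Figure D2:**
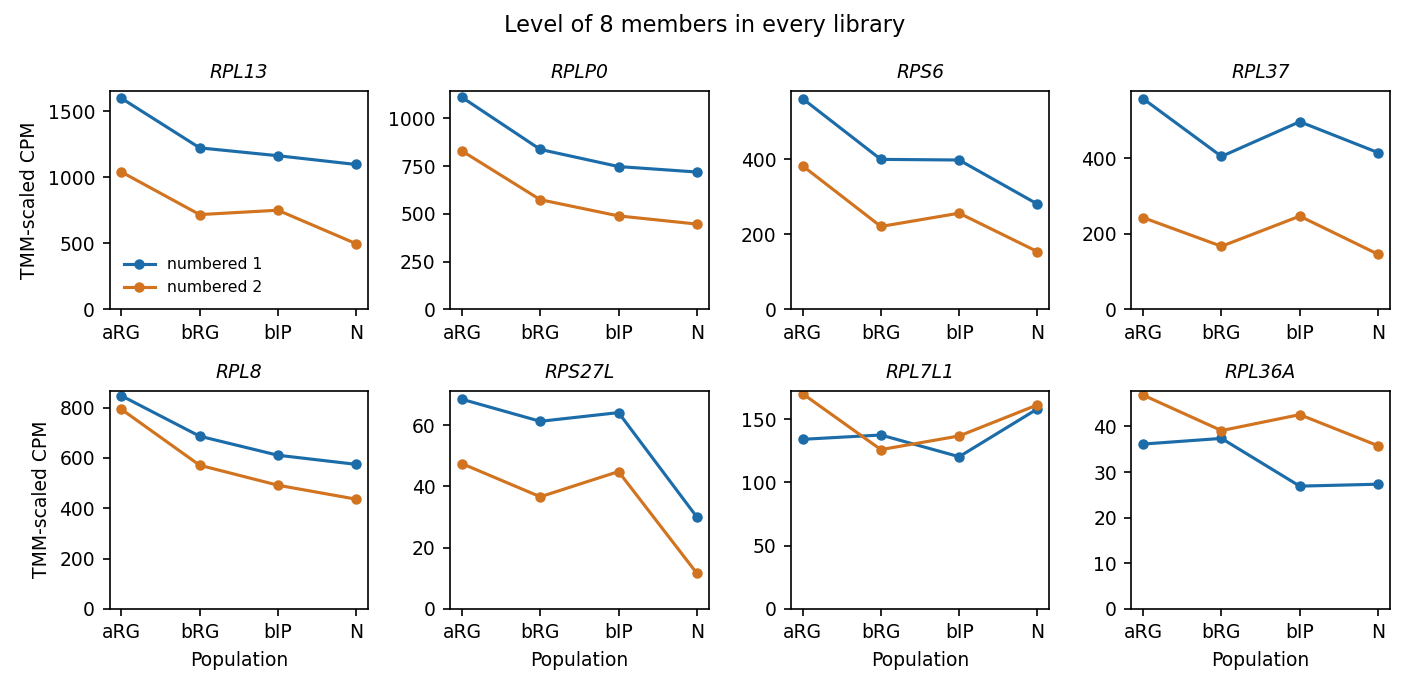
TMM-scaled CPM (linear axes from 0) of 8 members in each library; points are single libraries and lines join libraries with the same number. RPL13, RPLP0, RPS6, RPL37, RPL8 and RPS27L are lower in every library numbered 2 than in its counterpart numbered 1, RPL36A is higher, RPL7L1 is mixed, and RPS27L is lowest in the 2 N libraries.

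The first question was whether the progenitors away from the ventricle differ from apical radial glia. No member was called between bRG and aRG by edgeR's quasi-likelihood test with Benjamini-Hochberg adjustment, 0 passed an unadjusted p of 0.05 (3.73% of all genes did), and DESeq2 also called 0. These fits have no term for library number, and counts from a fit with such a term are given in the last section. Only 0.00283% of all genes were called in this comparison, a single gene. The members' differences nonetheless lay close together on the low side: their median log2 fold change was -0.41, with quartiles of -0.48 and -0.33, where all genes tested had a median of 0.02 and quartiles of -0.35 and 0.54. At the median, aRG stood 1.33 times above bRG. Within number 1 the median was -0.32 and within number 2 it was -0.54. In the fit 75 of 79 members were lower in bRG (48.6% of all genes), 70 were lower within both numbers (25.5% of all genes), and 14 had both bRG libraries below both aRG libraries, where 14.1% of all genes did. Members measured in the same libraries are not independent of each other, so these counts describe 4 libraries and carry no test. The lowest p-values belonged to RPL7, RPSA, RPL3 and RPL7A. RPL3, a protein close to the peptidyl transferase centre, reached 1235 and 1065 CPM in aRG and 973 and 657 in bRG. Both bRG libraries were below both aRG libraries, yet the log2 fold change of -0.50 (SE 0.29) was not called (adjusted p = 1 by edgeR's quasi-likelihood test).

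**Figure D3:**
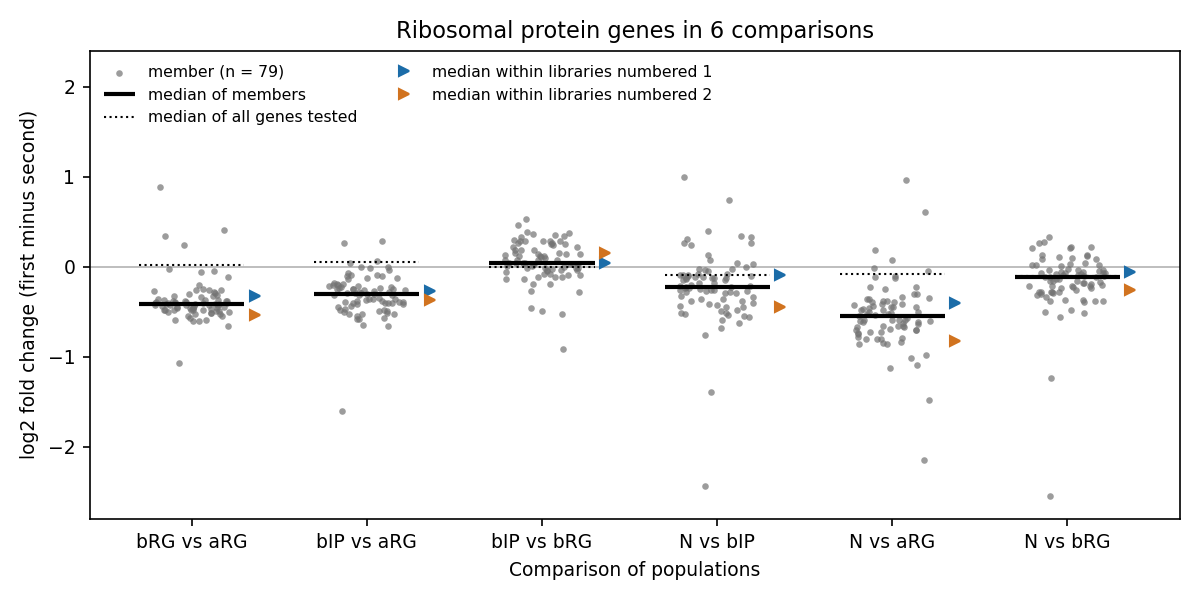
Log2 fold change of each of 79 members in the 6 comparisons (grey points), with the members' median (thick line), the median of all genes tested (dotted line) and the members' median within libraries numbered 1 and 2 (triangles). Medians against aRG lie at -0.41, -0.30 and -0.55, and those among bRG, bIP and N lie nearer to 0.

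Between bIP and aRG no member was called either (edgeR, 2.83% of all genes were). In this fit, without a term for library number, 3 members (6.83% of all genes) were lower at an unadjusted p under 0.05. DESeq2 also made 0 member calls here. The median log2 fold change was -0.30 (-0.27 in number 1 and -0.37 in number 2; 0.05 over all genes), a level 1.23 times higher in aRG. Lower within both numbers were 68 of 79 members (28.7% of all genes), and 18 had libraries that did not overlap with bIP lower (20.7%). The 3 genes with the lowest p-values were RPL8, RPSA and RPL22. RPL8, a protein at the heart of the large subunit, reached 847 and 794 CPM in aRG, 687 and 571 in bRG, 611 and 492 in bIP, and 575 and 436 in N. The aRG libraries were the highest and did not overlap with any other. The bIP difference was -0.57 (SE 0.24, adjusted p = 0.327 by edgeR's quasi-likelihood test with Benjamini-Hochberg adjustment). RPSA, which is a 40S protein also known as the laminin receptor precursor, reached 653 and 518 CPM in aRG, 442 and 341 in bIP, and 518 and 470 in N. It was lowest in bIP rather than in N, and the bIP difference was -0.58 (SE 0.25, adjusted p = 0.342 in the same edgeR test).

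N against aRG was the comparison with the lowest member levels. No member was called by edgeR's quasi-likelihood test with Benjamini-Hochberg adjustment, although 9.67% of all genes tested were called. At an unadjusted p under 0.05, 10 of 79 members were lower and 0 higher, where 11.1% and 10.7% of all genes were in this fit, which has no term for library number. DESeq2 called 2 members (10.3% of all genes). With library number as a block edgeR called 40 members, all lower (14% of all genes), though the labels do not tie equal numbers to a shared batch. Leaving out single libraries changed the number of members called. The median log2 fold change was -0.55 (quartiles -0.70 and -0.39) against -0.08 for all genes, with -0.41 in number 1 and -0.82 in number 2, and it was -1.11 without N library 1 and -0.14 without N library 2. Lower within both numbers were 70 of 79 members (35.5% of all genes), and 27 had libraries that did not overlap with N lower (26.2%). When all 4 populations were ranked, aRG was highest within both numbers for 61 of 79 members (10.6% of all genes), N was lowest for 40 (19.3%), and both held for 38 (4.61%). The aRG libraries were also those with choroid plexus and mesenchyme markers, whose part in the members' level was not tested. TTR, the leading choroid plexus marker, was at 819 CPM in aRG 1 and 3092 in aRG 2.

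The genes nearest to the threshold in N had different roles. RPS27L, a paralog of RPS27 known as a p53 target gene, reached 68.5 and 47.5 CPM in aRG, 61.3 and 36.6 in bRG, 64.2 and 44.9 in bIP, and 30.04 and 11.65 in N. Both N libraries were below the other 6. Its log2 fold change was -1.47 against aRG (SE 0.44, adjusted p = 0.0542), -1.39 against bIP (SE 0.44, adjusted p = 0.135) and -1.23 against bRG (SE 0.43, adjusted p = 0.139) by edgeR's quasi-likelihood test with Benjamini-Hochberg adjustment. These comparisons share the N libraries. Against aRG the adjusted p was 0.00955 with DESeq2. Leaving out each library in turn in edgeR gave log2 fold changes from -2.32 to -0.95 against aRG. The same ranges were -2.23 to -0.85 against bIP and -2.08 to -0.70 against bRG. RPS27 itself, the member it resembles, reached 1225 and 774 CPM in aRG and 681 and 331 in N, a log2 fold change of -0.98 (SE 0.42).

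RPS6, the 40S protein phosphorylated by the S6 kinases downstream of mTOR, had the next lowest p-value. It reached 561 and 382 CPM in aRG, 399 and 221 in bRG, 398 and 256 in bIP, and 280 and 154 in N. The N libraries were below both aRG libraries but overlapped with those of bRG and bIP. The log2 fold change from aRG to N was -1.12 (SE 0.37, adjusted p = 0.0894 by edgeR's quasi-likelihood test with Benjamini-Hochberg adjustment). With DESeq2 the adjusted p was 0.0347. Leaving out each library in turn in edgeR gave log2 fold changes from -1.62 to -0.75. RPL8 differed by -0.70 from aRG to N (SE 0.24, adjusted p = 0.105 in the same edgeR test, and 0.0238 with library totals in place of TMM).

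Of the P-stalk proteins, which recruit elongation factors to the ribosome, RPLP0 reached 1111 and 830 CPM in aRG, 838 and 574 in bRG, 748 and 489 in bIP, and 719 and 447 in N. RPLP1 reached 769 and 487 CPM in aRG, 545 and 280 in bRG, 502 and 340 in bIP, and 417 and 174 in N. RPLP2 reached 524 and 313 CPM in aRG and 387 and 129 in N. For RPLP0 and RPLP1 the N libraries lay below both aRG libraries, while for RPLP2 they overlapped. Log2 fold changes from aRG to N were -0.73 (SE 0.32) for RPLP0, -1.09 (SE 0.43) for RPLP1 and -0.70 (SE 0.49) for RPLP2, with adjusted p = 0.196, 0.152 and 0.461 by edgeR's quasi-likelihood test. For RPLP1, leaving out each library in turn in edgeR gave log2 fold changes from -1.85 to -0.59.

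RPL5 and RPL11 bind the 5S ribosomal RNA and, when free of the ribosome, the p53 regulator MDM2. RPL5 reached 846 and 599 CPM in aRG, 710 and 459 in bRG, 748 and 432 in bIP, and 621 and 384 in N. RPL11 reached 422 and 244 CPM in aRG, 307 and 170 in bRG, 354 and 190 in bIP, and 314 and 142 in N. In both genes the populations overlapped, and the spread between the numbered libraries exceeded the differences between populations. From aRG to N the log2 fold change was -0.52 (SE 0.34) for RPL5 and -0.55 (SE 0.44) for RPL11.

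By count, the largest members were RPL13, RPL13A, RPL3, RPS14, RPS27 and RPLP0, with mean levels of 719 to 1011 CPM. RPL13 reached 1599 and 1040 CPM in aRG, 1223 and 717 in bRG, 1164 and 751 in bIP, and 1097 and 497 in N. Its log2 fold change from aRG to N was -0.73 (SE 0.39), and the aRG library numbered 2 lay below the N library numbered 1. Of the 79 members, 14 had a mean above 500 CPM, 52 between 100 and 500, 6 between 10 and 100, and 7 below 10. Among the lowest were RPS10, RPL26, RPL17, RPL22 and RPL3L, with means of 7.48, 6.30, 5.11, 2.41 and 0.977 CPM. Pseudogenes named after them held 62.7% of the joint reads for RPS10, 50.2% for RPL26 and 65.2% for RPL17, so these levels are uncertain.

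By the median log2 fold change with TMM scaling, the 3 populations outside aRG differed less from each other. The summed share did not follow this throughout. The share in bRG was 1.32 and 1.42 times that in N within numbers 1 and 2, beside 1.23 and 1.38 for aRG over bRG. For bIP over N it was 1.27 and 1.51, beside 1.28 and 1.30 for aRG over bIP. With library totals the medians were -0.43 (N against bIP), -0.42 (N against bRG), -0.34 (bRG against aRG) and -0.33 (bIP against aRG). Over all genes the medians with that scaling were -0.29, -0.40, 0.10 and 0.03 in the same order. The members' medians in the 2 N comparisons thus lay nearer to those of all genes than the medians against aRG did. Between bIP and bRG no member was called (edgeR; 1.03% of all genes), 0 passed an unadjusted p of 0.05 (9.19% of all genes did) and DESeq2 called 0. The median was 0.05 (0.05 and 0.15 within numbers), with 39 of 79 members higher in bIP within both numbers (27.8% of all genes) and 10 lower (30.1%). Leaving out bRG library 2 or bIP library 1 turned the median to -0.21 or -0.26. Scaling by library totals turned the median to -0.05, beside -0.11 over all genes. Between N and bIP edgeR called 0 members (2.54% of all genes), 1 was lower with unadjusted p below 0.05 (8.36%) and DESeq2 called 1. The median was -0.22 (-0.10 and -0.44 within numbers; -0.10 over all genes) and turned to 0.15 without bIP library 1 and 0.19 without N library 2. Without N library 1 the median was -0.78. Lower within both numbers were 52 members (34.4% of all genes), and 4 did not overlap with N lower (24.5%). RPS20, a 40S protein, reached 262 and 180 CPM in bIP and 177 and 84.5 in N, a log2 fold change of -0.76 (SE 0.38).

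Between N and bRG edgeR called 0 members (6.01% of all genes), 1 was lower with unadjusted p below 0.05 (9.76%) and DESeq2 called 0. The median of -0.12 (-0.06 and -0.26 within numbers) stood beside -0.11 for all genes. With the filter of at least 5 CPM in 2 libraries it was -0.26 against -0.0024 for all genes, and on the human table -0.19 against -0.0088. It turned to 0.24 without bRG library 1 and 0.28 without N library 2, and was -0.69 without N library 1 and -0.47 without bRG library 2. Lower within both numbers were 48 members (36.3% of all genes), and 3 did not overlap with N lower (27.7%). The comparisons share libraries, so their medians are not independent of each other.

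The paralog-type genes, most of which are known for restricted or lower expression than the genes they resemble, did not share 1 pattern. RPL7L1, an RPL7-like protein of pre-ribosomes, reached 134 and 170 CPM in aRG, 137 and 126 in bRG, 120 and 137 in bIP, and 158 and 161 in N. The populations overlapped, and the log2 fold change from aRG to N was 0.07 (SE 0.24, adjusted p = 0.916 by edgeR's quasi-likelihood test), while RPL7 reached 796 and 680 CPM in aRG and 601 and 530 in N. RPL26L1 reached 28.8 and 32.5 CPM in aRG, 32.7 and 27.9 in bRG, 36.5 and 27.4 in bIP, and 44.4 and 25.6 in N. For RPL26, the gene it resembles, the mean was 6.30 CPM on the chimpanzee genome and 14.2 on the human genome, an uncertain level with which RPL26L1 is not compared. RPL22L1 reached 21.9 and 14.9 CPM in aRG, 23.3 and 12.2 in bRG, 23.5 and 6.06 in bIP, and 16.4 and 7.72 in N, so the libraries separated by number and not by population.

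RPL39L, known for its expression in testis, was at 5.74 to 12.5 CPM in all libraries, and RPL3L, known from heart and skeletal muscle, was at 0.0773 to 1.71 CPM. RPL10L, another gene known from testis, had 30 counts (1.29 CPM) in N library 2, 1 count in aRG library 1 and none in the other 6. RPS4X, the X-linked 40S gene, reached 829 and 555 CPM in aRG, 574 and 373 in bRG, 690 and 447 in bIP, and 653 and 372 in N, with overlap between aRG and N (log2 fold change -0.43, SE 0.34). Its Y-linked counterparts RPS4Y1 and RPS4Y2 had 0 counts in all libraries, where 3 counts would be 0.0884 to 0.129 CPM.

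**Figure D4:**
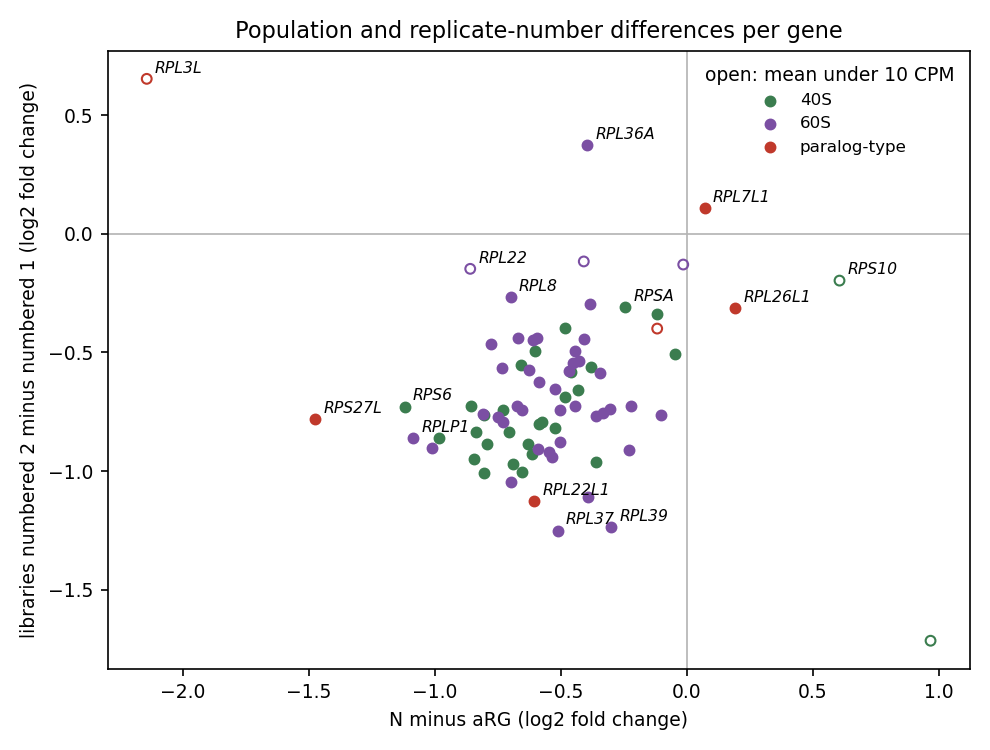
For each of 79 members, the log2 fold change from aRG to N (horizontal) and from libraries numbered 1 to libraries numbered 2 (vertical, additive model); colours give the subunit or class and open circles a mean under 10 CPM. Most 40S and 60S members lie lower on both axes, and among members over 10 CPM RPS27L lies farthest left, RPL37 and RPL39 lie lowest, and RPL36A and RPL7L1 lie above 0 on the vertical axis.

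To see how the members moved relative to each other, each level was set against the median of the 40S and 60S members in the same library. Among 67 such genes with a mean of at least 50 CPM, the relative level differed from aRG by more than 0.5 (log2) in the same direction within both numbers for 2 genes, both in N: RPS23 (0.63 and 0.59), a protein of the decoding centre, and RPL37A (0.58 and 0.51), a zinc-ribbon protein of the large subunit. Some paralog-type genes moved apart from this median in N, in both directions, while RPL22L1 stayed near it (0.12 and -0.08). The relative level of RPL7L1 was higher by 0.78 in each number, that of RPL26L1 by 1.16 and 0.51, and that of RPS27L differed by -0.65 and -1.17. RPS6 differed by -0.46 in both numbers. These relative levels are descriptions with no test.

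The same libraries had also been counted on the human genome, and 80 of the 86 members could be compared there; RPL10, RPL36A, RPL39, RPS4X, RPS4Y1 and RPS4Y2, which lie on chromosomes X and Y, were not analysed on that table. For 61 of the 80 the mean log2 ratio of the 2 CPM values, each with 1 added, was within 0.5 of 0. For 6 the chimpanzee value was lower by more than 1 on that scale in all 8 libraries, and for 0 it was higher by more than 1. Among them, 4 had 0 counts in all libraries on the chimpanzee genome. On the human genome RPL18 averaged 565 CPM, RPS15 429, RPL36 372 and RPL35A 253. RPL22 had 2.41 CPM on the chimpanzee and 59.9 on the human genome. Their zero or low values on the chimpanzee genome are therefore not read as low expression. RPL12 went the other way, with 173 and 77.0 CPM.

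**Figure D5:**
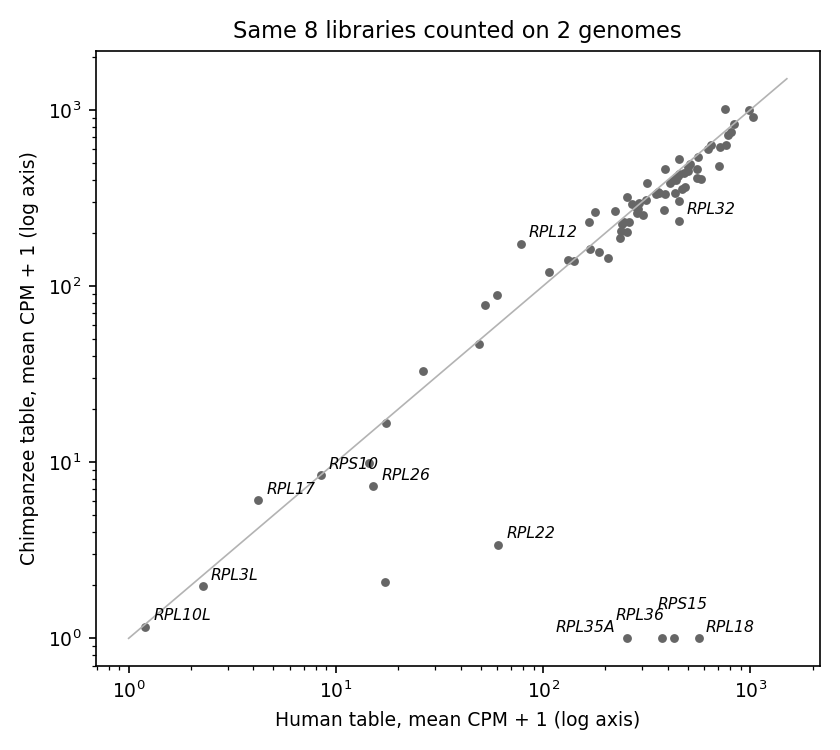
Mean CPM plus 1 over 8 libraries for the 80 members in both tables, counted on the human genome (horizontal) and on the chimpanzee genome (vertical), on log axes with the line of equal values. RPL18, RPS15, RPL36 and RPL35A lie at 0 counts on the vertical axis, RPL22 lies well below the line, and RPL12 lies above it.

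On the human table the 4 genes at 0 were also lower in N than in aRG in the fit, and none was called. RPS15, a 40S protein, reached 588 and 563 CPM in aRG, 458 and 393 in bRG, 440 and 319 in bIP, and 395 and 277 in N. Its log2 fold change from aRG to N was -0.78 (SE 0.26, adjusted p = 0.0611 by edgeR's quasi-likelihood test), and those of RPL18, RPL36 and RPL35A were -0.82, -0.55 and -0.54. RPL22 differed by -0.29 from aRG to N on this table, against -0.86 on the chimpanzee table. Over 79 members tested on the human table the median from aRG to N was -0.59 (-0.49 and -0.81 within numbers, -0.02 over all genes). Of these, 1 was called, RPS27L (adjusted p = 0.0374 by edgeR's quasi-likelihood test), where 19.2% of all genes tested on that table were called. At an unadjusted p of 0.05, 12 of the 79 members passed. The share of all genes at that p was not taken, but it is at least the 19.2% called. From aRG to bRG the human-table median was -0.40 and from aRG to bIP -0.28. The summed share there was 4.27% and 2.91% in aRG, 3.50% and 2.14% in bRG, 3.41% and 2.29% in bIP, and 2.68% and 1.53% in N.

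Ribosomal protein genes have many processed pseudogenes, and reads can be split between a gene and a near-identical copy. Counted on the chimpanzee genome were 1148 genes named as pseudogenes of a member, which together took 0.0825% to 0.119% of counts. By library number their share did not follow that of the members: library 1 had 1.17, 1.08, 0.996 and 0.833 times the share of library 2 in aRG, bRG, bIP and N. By population the mean share was also lowest in N, at 0.0908% ± 0.0117, beside 0.110% ± 0.0121 in aRG (SD, n = 2). In bRG and bIP it was 0.114% and 0.112%. The aRG share was 1.44 and 1.02 times the N share in numbers 1 and 2. Of 570 tested, edgeR's quasi-likelihood test with Benjamini-Hochberg adjustment called 8 higher and 7 lower in N than in aRG. Over all genes, 4.87% were called higher and 4.8% lower. The median log2 fold change of the 570 was -0.25, against -0.08 for all genes. RPSAP52, named as a pseudogene of RPSA, fell by 4.25 on the log2 scale in N against aRG (SE 0.80, adjusted p = 0.00439 in edgeR), and the member itself was not called. The RPSAP52 locus is known to be transcribed antisense across HMGA2, and without strand the reads of both cannot be told apart. For RPL22 the pseudogenes held 80.8% of the reads of the gene and its pseudogenes together, so its value on the chimpanzee genome is uncertain. For RPL32 the share was 13.5%.

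The 4 cytosolic ribosome genes that the symbol rule misses gave values like those of the members. FAU, which encodes RPS30 fused to a ubiquitin-like protein, reached 350 and 278 CPM in aRG, 277 and 191 in bRG, 291 and 183 in bIP, and 286 and 157 in N. RACK1, a scaffold on the 40S head, reached 891 and 786 CPM in aRG, 695 and 545 in bRG, 667 and 508 in bIP, and 609 and 401 in N. For RACK1 the aRG libraries were above all others, with a log2 fold change to N of -0.73 (adjusted p = 0.129 by edgeR's quasi-likelihood test). None of the 4, RPL36AL included, was called in any of the 6 comparisons, and only RACK1 in N against aRG passed an unadjusted p of 0.05 (edgeR; DESeq2 calls were not taken for these lists).

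Other genes of the translation machinery were examined as lists. None of 35 initiation factors and none of 73 ribosome biogenesis genes was called in any comparison, with medians from aRG to N of -0.14 and 0.02 against -0.55 for the members and -0.08 for all genes; at an unadjusted p under 0.05, 2 initiation factors were higher and 3 lower and 3 biogenesis genes were higher and 1 lower in that comparison (edgeR). At the same unadjusted p, 9 biogenesis genes were lower in bIP than in aRG (6.83% of all genes were), 9 were lower in bIP than in bRG (5.22%), and 10 were higher in N than in bIP (6.88%), with medians of -0.29, -0.25 and 0.33. Of 72 mitochondrial ribosomal protein genes, 1 was called, MRPL17, which fell by 1.12 on the log2 scale in N against aRG (adjusted p = 0.0340 by edgeR's quasi-likelihood test), and the list's median was -0.03. In bIP against aRG its median was -0.27, beside -0.30 for the members, with 10 of 72 lower at an unadjusted p under 0.05, where 3 of 79 members were; in bRG against aRG it was -0.16. Among 7 elongation factor genes, EEF1A2, the form that neurons and muscle use, was higher in N than in aRG (log2 fold change 2.40, adjusted p = 0.0446 in edgeR). EEF1A1, a TOP mRNA, reached 1991 and 1867 CPM in aRG, 1667 and 1157 in bRG, 1729 and 1461 in bIP, and 1695 and 1147 in N. For the 22 other known TOP mRNAs, a list that also holds FAU and RACK1, the median was -0.33 from aRG to N, with TMSB10, which encodes an actin-binding peptide, the only one called (1.55, adjusted p = 0.00558 in edgeR). At an unadjusted p under 0.05, 5 of these 22 were lower and 1 was higher, where 11.1% and 10.7% of all genes were (edgeR). For 16 snoRNA host genes the median was -0.07 and none was called. At that unadjusted p, 1 was higher and 2 lower. For 8 chaperones of ribosomal proteins the median was 0.11 and none was called, with 2 higher at an unadjusted p under 0.05.

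The lists were also compared by library number. The median log2 difference of number 2 from number 1 was -0.73 for the members, -0.50 for the 4 other cytosolic ribosome genes, -0.40 for the other TOP mRNAs and -0.37 for the snoRNA host genes. It was -0.22 for the elongation factors, -0.15 for the initiation factors, -0.08 for biogenesis genes, -0.04 for mitochondrial ribosomal proteins and -0.02 for all genes tested. Called lower in number 2 were 4 of 22 other TOP mRNAs, 1 of 16 snoRNA hosts, 1 of 4 other cytosolic ribosome genes, 2 of 35 initiation factors, 1 of 8 chaperones, 1 of 73 biogenesis genes, 0 of 7 elongation factors and 0 of 72 mitochondrial ribosomal protein genes, where 0.735% of all genes were (edgeR). Called higher was 1 biogenesis gene.

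Among 26 growth regulators that act on ribosome production, called genes belonged to the MYC and MAX network. MYCN, the MYC-family factor of neural progenitors, was higher in N (193 CPM ± 16.6) than in aRG (67.1 ± 8.08), bRG (70.9 ± 15.1) or bIP (54.2 ± 21.7; SD, n = 2 each), with log2 fold changes of 1.52, 1.44 and 1.83 and adjusted p = 0.00792, 0.0168 and 0.00986 by edgeR's quasi-likelihood test. MXD1, a MAX partner that opposes MYC, was also higher in N than in aRG (47.4 ± 13.4 against 19.7 ± 0.451 CPM; 1.27, adjusted p = 0.0387 in edgeR). MXD3, another MAX partner, was higher in the radial glia, with means of 355 ± 15.9 CPM (aRG) and 201 ± 34.4 (bRG). Its means were 46.5 ± 23.9 CPM in bIP and 51.7 ± 0.234 in N. It fell by 2.93 on the log2 scale in bIP and by 2.78 in N against aRG (adjusted p = 0.00101 and 0.000278 in edgeR). Any link of these genes to the members' level was not tested.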

How the data were processed

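RNA of 8 sorted libraries (4 populations, 2 each) was measured. The deposited values are raw read counts per gene, 1 table on panTro6 and 1 on hg38. Alignment used STAR, per the submitters' processing notes; for the version, annotation, counter and treatment of mates, the answer is not given in the sources used here. Genes passing filterByExpr (minimum count 10) were fitted with edgeR 4.0.16 in R 4.3.3: TMM scaling, 1 coefficient per population, quasi-likelihood tests with 4 residual degrees of freedom and Benjamini-Hochberg adjustment over 35382 genes at 0.05. Within-number differences used log2 CPM with a prior count of 2. No adjustment over the members alone was made. DESeq2 1.42.0, other scalings and filters, the human table, halved counts, added pseudogene counts, a replicate block and leaving out each library were alternatives. A row without a gene name held, on average per population, 0.00565% to 0.00737% of counts and was left out. The script was tested on simulated data. The members and gene lists were chosen with earlier results of these data known. Members named with values are the 4 with the lowest p-values in a comparison where none was called, paralog-type genes, the 6 highest and 6 lowest by count, RPLP0, RPLP1, RPLP2, RPSA, RPL5, RPL11, RPS6, and those whose 2 tables differed by over 1 (log2) in all libraries; of other lists, up to 4 with the lowest p-values. Others, such as RPL37, RPL39, RPL34, RPL36A and RPL12, were named after their values were seen. TMM normalization factors ran from 0.854 to 1.10. No transcript lengths or sequences were used here. Some results are not reported here because they concern withheld items.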

Additional observations from a re-analysis of the deposited data

Results flagged for a closer look

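Of the members, 4 gave a signal in data that the comparisons above did not use, since they had 0 counts in all 8 libraries on the chimpanzee genome and were left out of its tests. On the human genome the mean level was 565 CPM for RPL18, 429 CPM for RPS15, 372 CPM for RPL36 and 253 CPM for RPL35A. The cause of the 0 counts was not tested. Groups of 2 libraries are too small for a check of libraries far from the others.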

How the results depend on the processing

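Medians kept their direction in the 3 comparisons against aRG under the 8 other settings for which a median was computed and without each library. Members called in N against aRG, 0 as reported, numbered 2 with DESeq2 (10.3% of all genes), 1 with DESeq2's size factors in edgeR (9.54%), 4 with library totals and no TMM (9.67%), 12 without a low-count filter (8.91%), 3 with at least 5 CPM in 2 libraries (24.4%), and 1 on the human table (19.2%), with halved counts (12.6%) or with pseudogene counts added (9.83%); the last was higher in N, all others lower. In N against bIP 1 was called with DESeq2 (4.9% of all genes) and 1 without a filter (4.46%), and in N against bRG 1 without a filter (6.46%). Library totals moved the median of all genes by over 0.1 in the N comparisons (to -0.29 in N against aRG). They moved the members' median to -0.055 in bIP against bRG and -0.42 in N against bRG, beside -0.11 and -0.40 over all genes. Without one library at a time, medians against aRG ran from -0.82 to -0.11 (bRG), -0.67 to -0.053 (bIP) and -1.11 to -0.14 (N). The others ran from -0.26 to 0.47 (bIP against bRG), -0.78 to 0.19 (N against bIP) and -0.69 to 0.28 (N against bRG). A population left with 1 library was assumed to vary like the others.

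The labels do not tie equal numbers to a shared batch, so the pairing is a hint from the data: deviations of libraries with the same number correlated at 0.29 to 0.60 over 11200 genes in all 6 pairs of populations. With the replicate block edgeR called 40 members in N against aRG (14% of all genes), 2 in bIP against aRG (RPLP0 and RPL8; 6%), 4 in N against bIP (RPS27L, RPS27 and RPS20 among them; 6.12%), 1 in N against bRG (RPS27L; 10.2%) and 0 in the other comparisons, all lower. At an unadjusted p under 0.05 in edgeR with the block, 54 of 79 members were lower in bRG against aRG. In bIP against aRG 28 were lower and in N against aRG 58, and 0 were higher in any of these. The share of all genes at that p was not taken for this fit, so these counts have no background beside them. It is at least the share called, 14% in N against aRG and 6% in bIP against aRG. Depth limits the members at 0 counts, for which 3 counts would be 0.0884 to 0.129 CPM. Libraries were not left out in turn for the other gene lists.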
